A study of Mus musculus with 24 samples.

Results

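The genes described here are those whose transcripts were scarcer after diphtheria toxin (DT) than after saline at every time sampled in a set of mouse intestinal tumours. They were chosen by their measured values. Counts were converted to CPM, which is 1e6 times a gene's count over the library's summed count, and averaged over the 4 libraries of a group. A gene was taken if its mean was at least 1 CPM in Saline libraries at 24 h and the ratio of DT mean to Saline mean was at most 0.5 at 24, 48 and 96 h. Of 36528 genes, 15430 reached that mean and 121 also met the ratio. A list of 18 genes was left out of the choice, 10 of which were among the 121, and 111 members remained. Of the 17468 genes with enough reads to test, 2.79% had a ratio at or below 0.5 at 24 h, 1.57% at 48 h and 1.25% at 96 h. Because this contrast of DT with Saline made the choice, its values are given as a description throughout, and the tests are kept to contrasts between times.

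The libraries were made from cells sorted from small-intestine tumours with the genotype recorded as AKVPL, a string whose alleles the labels used here do not spell out. The sort is recorded as bulk, and the sample names carry EpCAM, a surface protein of epithelial cells. Tumours had received DT, given in this design to deplete cells that express Lgr5, or saline as its control. DT libraries of 24 h, Saline libraries of 24 h, DT libraries of 48 h, Saline libraries of 48 h, DT libraries of 96 h and Saline libraries of 96 h number 4 each, 24 in all. All 6 groups share the AKVPL genotype and the same sort. Nothing in the labels says that the libraries of a group came from separate animals, so spreads and p-values measure only the differences between these samples, which may be technical.

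Lgr5 is a receptor for R-spondins, secreted proteins that strengthen Wnt signalling, and it marks the dividing stem cells at the base of intestinal crypts and cells like them in intestinal tumours. Diphtheria toxin enters a cell through a surface receptor and stops protein synthesis by modifying elongation factor 2. Mouse cells bind the toxin poorly, so a depletion experiment gives a receptor from another species to the chosen cells alone. The labels used here do not name the allele that carried it. In bulk samples, fewer cells of a type and less RNA per cell cannot be told apart.

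Total counts ran from 10888654 to 27707554 per library. The depleted marker, Lgr5, which is not a member, held a mean of 83.0 ± 5.37 CPM in DT libraries and 199 ± 17.0 CPM in Saline libraries at 24 h (SD, n = 4 each). Its DT mean was 41.8% of the Saline mean at 24 h, 67.1% at 48 h and 75.6% at 96 h, so Lgr5 itself did not meet the rule at the later times. The Lgr5 level went against the label in 1 library. The library labelled DT 48 h replicate 3 had 169 CPM of Lgr5, against 97.0 to 120 CPM in the other 3 DT libraries of that time, and lay inside the range of the Saline libraries, 162 to 198 CPM. The members stood higher in it too, at a median of 51.4% of the Saline mean, against 23.4% to 26.1% in the other 3. It held the highest value of the 4 DT libraries for 91 of the 111 members, and 51 members were at or below 0.5 of the Saline mean in it. Values at 48 h are therefore given with and without it. At 96 h, DT replicate 3 stood above its group at 41.5%, against 27.7% to 29.4%, and was the highest for 73 members. Saline replicate 2 of 96 h was the lowest of its group for 89 members, at a median of 71.8% of the group's mean. Saline replicate 3 of 48 h was the lowest for 70 members, at 83.4%, with a summed level of 1863 CPM over the members, against 2658 to 2707 CPM in the other 3 Saline libraries.

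**Figure D1:**
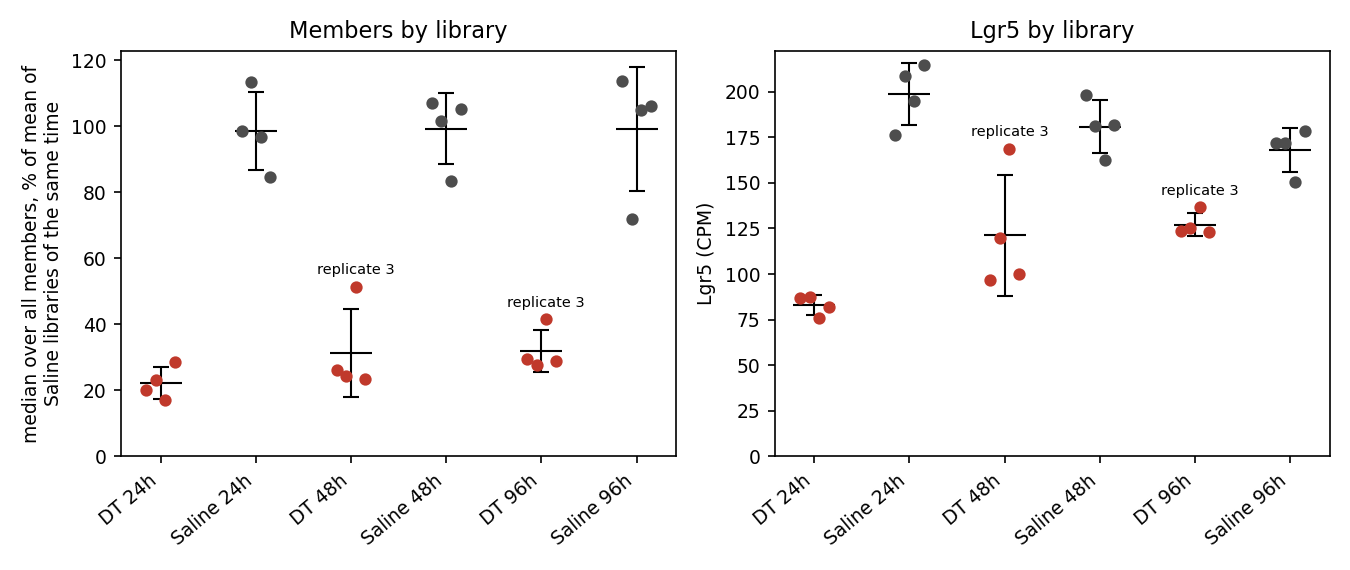
Left, median over the 111 members of each library's CPM as a percentage of the mean of the Saline libraries of the same time; right, Lgr5 in CPM, for the 4 libraries of each group (points) with the group mean and SD (bars). DT libraries lie at 17.1% to 28.5% at 24 h, and the library labelled DT 48 h replicate 3 stands at 51.4% on the left and at 169 CPM on the right.

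The members were mostly scarce transcripts. In Saline libraries of 24 h 6 of them had a mean of at least 100 CPM, 33 lay between 10 and 100 CPM and 72 were below 10 CPM, 28 of these below 2 CPM. The median was 5.33 CPM. Their levels summed to a mean of 508 ± 141 CPM in DT libraries and 3080 ± 455 CPM in Saline libraries at 24 h (SD, n = 4 each), and Spock2 alone made up 36.9% of the Saline sum. By RefSeq annotation 81 were protein coding and 24 were long noncoding RNAs, and 6 identifiers had no entry. An assigned gene symbol was held by 82 members and provisional names or none by 29. The 105 with a position lay on 20 chromosomes, with the most, 13, on chromosome 10, which also carries Lgr5. Several of these 13 overlap or neighbour each other, and the share of all genes on that chromosome is not given here, so nothing is read from the count.

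The DT level of the median member was 23.7% of the Saline level at 24 h, 33.6% at 48 h and 34.8% at 96 h, while that of the median gene with at least 1 CPM was 102%, 101% and 101%. Without the library labelled DT 48 h replicate 3 the median member stood at 25.1% at 48 h, close to its 24 h value. Without DT replicate 3 it stood at 30.9% at 96 h, and without DT replicate 4 at 20.9% at 24 h. A ratio at or below 0.25 was seen in 60 members at 24 h and in 35 at each later time. Ratios at or below 0.1 numbered 15 at 24 h, 3 at 48 h and 2 at 96 h. The lowest of the 3 ratios was the one at 24 h in 91 members, at 48 h in 9 and at 96 h in 11. That count of 91 rests in part on 1 library, since it was 64 without the library labelled DT 48 h replicate 3. The floor of the rule was on Saline libraries of 24 h alone. The members' median log2 fold change in Saline libraries was -0.24 at 48 h and -0.17 at 96 h relative to 24 h. Over all genes with at least 1 CPM the quartiles of the ratio were 86.8% and 121% at 24 h and 94.3% and 108% at 96 h. The part of either in the count of 91 was not tested. The 96 h ratio exceeded the 24 h ratio in 98 members, and the 96 h ratio exceeded the 48 h ratio in 57.

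Read by library rather than by mean, the highest DT library was lower than the lowest Saline library for 104 members at 24 h, where 14.1% of all 17468 tested genes did so. The counts were 98 at 48 h, against 7.3% of all genes, and 88 at 96 h, against 4.82%. At all 3 times 76 members showed no overlap. Leaving out the library labelled DT 48 h replicate 3 gave 108 at 48 h, and leaving out Saline replicate 2 gave 106 at 96 h. For the counts of 76, 108 and 106 the share of all genes is not given here. Leaving out a library can only keep or raise such a count for any gene set. In the fit across all genes (edgeR, quasi-likelihood; a call needs an adjusted p under 0.05) 110 members were called lower at 24 h, where 18.9% of all genes were lower and 19.9% higher. At 48 h 106 members were called lower, where 6.5% of all genes were lower and 4.83% higher. At 96 h 97 members were, where 3.02% of all genes were lower and 1.01% higher. The rule used this contrast, so nothing is read from these counts.

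To describe what the members encode, 59 of them were put into 10 groups by the known role of the protein, after the members and their values had been seen. The other 52 comprise genes of other roles, noncoding RNAs and genes without an assigned symbol. The groups' median levels left in DT libraries ran from 16.9% for neural adhesion and calcium proteins to 29.3% for luminal defence proteins and G protein-coupled receptors at 24 h. At 96 h they ran from 26.3% for pumps and transporters to 45.2% for the ion channel subunits. The groups are small and their ranges overlap, and no group was tested against another.

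**Figure D2:**
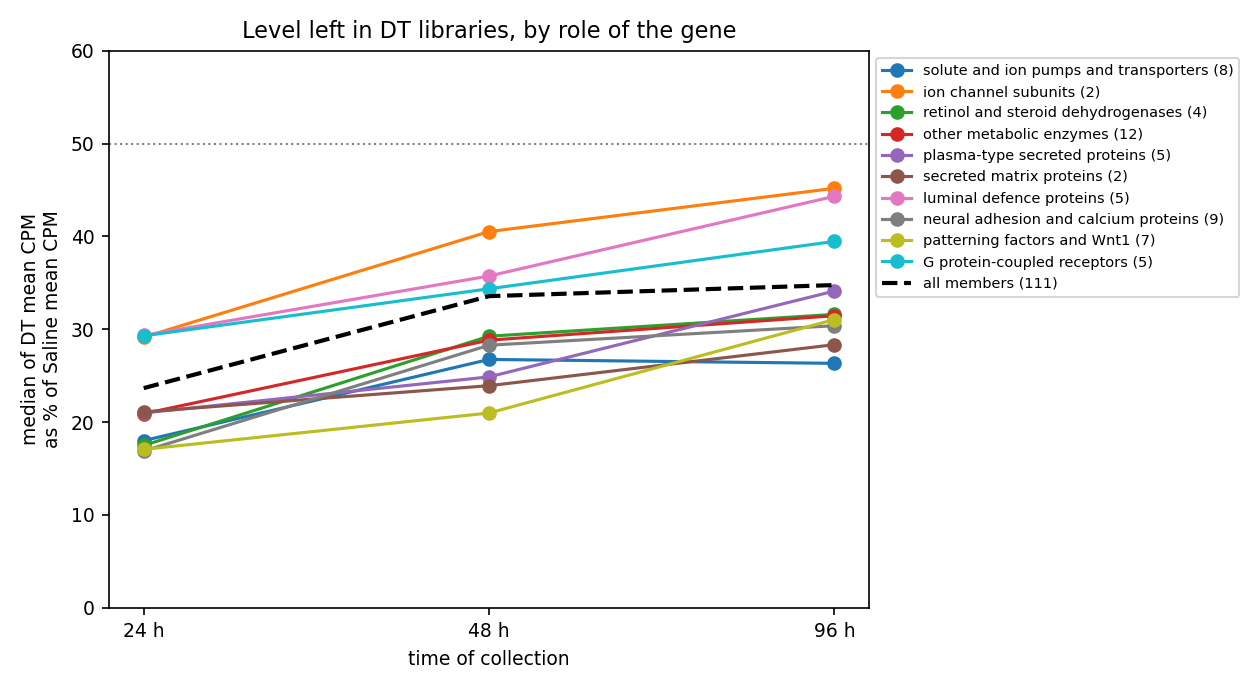
Median over the members of each role group of the DT mean as a percentage of the Saline mean (vertical axis) at 24, 48 and 96 h, with the number of members in parentheses; the dashed line is the median of all 111 members and the dotted line the 50% that the rule sets. The line of all members runs through 23.7%, 33.6% and 34.8%; the 48 h points include the library labelled DT 48 h replicate 3, without which that of all members is 25.1%.

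The most abundant member encodes a secreted matrix protein. Spock2, a proteoglycan of the extracellular matrix (testican family; chromosome 10, 60106257 to 60135198 on GRCm38), had 44.2, 69.8, 33.3 and 93.1 CPM in DT libraries of 24 h, against 984, 1472, 1102 and 993 CPM in Saline libraries of 24 h. The groups were far apart, and every DT library lay below every Saline library. At 48 h it had 60.8 to 79.3 CPM in 3 DT libraries and 289.6 CPM in the library labelled DT 48 h replicate 3, against 486 to 999.8 CPM in Saline libraries. The DT mean was 15.0% of the Saline mean at 48 h and 8.26% without that library. By 96 h the 4 DT libraries ran from 74.5 to 158 CPM and the Saline libraries from 627 to 1036 CPM, a mean of 12.7%. On the deposited scale that corrects for gene length (normalized RPKM), Spock2 averaged 9.81 in DT and 191 in Saline libraries of 24 h. Pcp4l1 came next among the members on that scale, with 12.3 in DT and 81.2 in Saline libraries. Vwa2, a secreted protein with von Willebrand factor A domains, kept more of its level, at 36.9% at 24 h and 44.0% at 96 h.

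**Figure D3:**
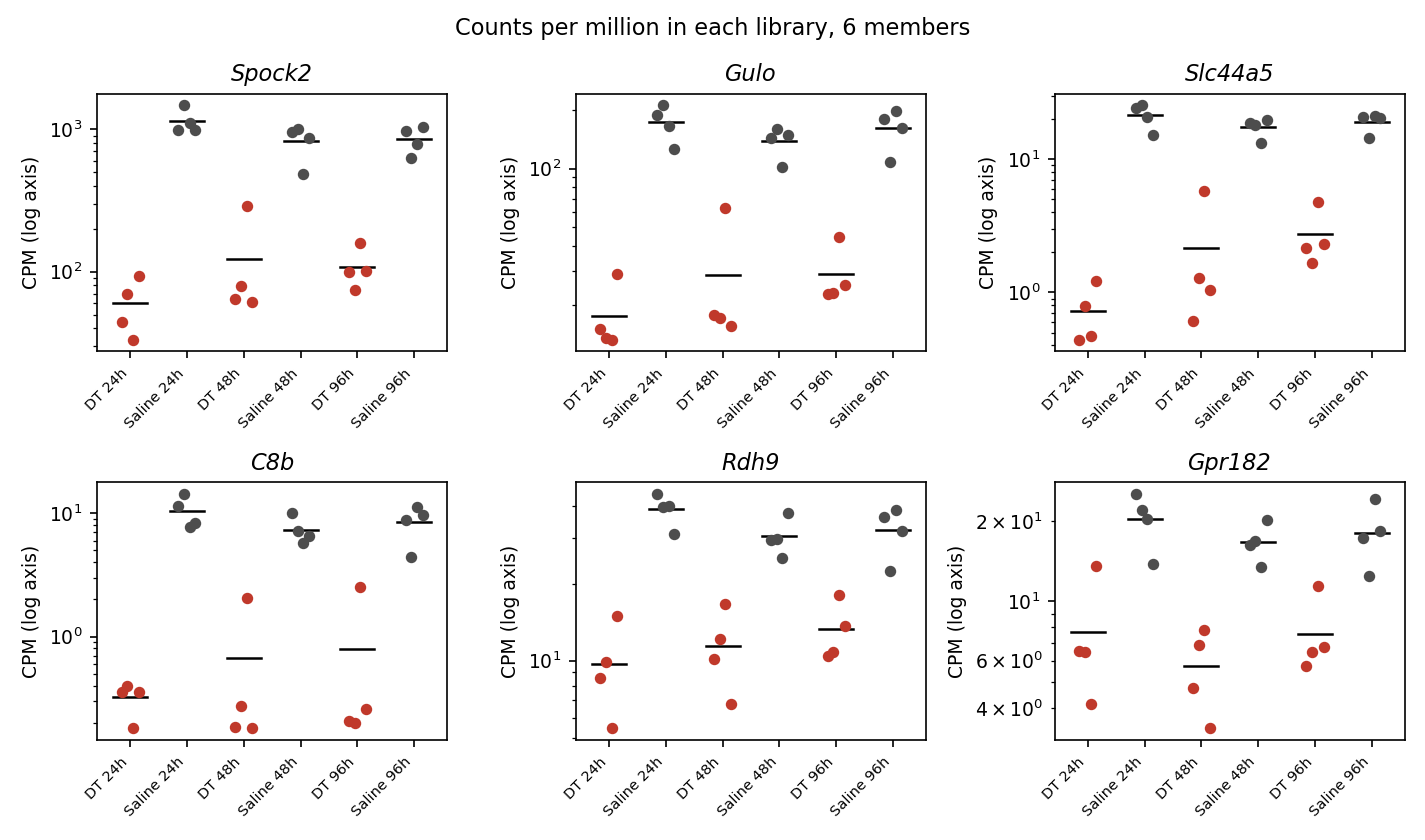
CPM on a log axis in each of the 24 libraries (points) and the mean of each group (line) for Spock2, Gulo, Slc44a5, C8b, Rdh9 and Gpr182, DT in red and Saline in grey. DT and Saline points do not overlap at any time for these 6 genes, and Spock2 and Slc44a5 lie furthest apart at 24 h, at 5.28% and 3.41% of the Saline mean, together with C8b at 3.06%.

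Pumps and solute carriers numbered 8, with a median DT level of 18.01% at 24 h, 26.8% at 48 h (17.9% without the library labelled DT 48 h replicate 3) and 26.3% at 96 h. Slc44a5, a choline transporter-like protein, had 0.442, 0.796, 0.473 and 1.21 CPM in DT libraries of 24 h, against 24.2, 25.5, 20.7 and 15.3 CPM in Saline libraries of 24 h. Every DT library lay far below the lowest Saline library. At 96 h it had 2.18, 1.68, 4.78 and 2.32 CPM in DT libraries, against 20.8, 14.5, 21.3 and 20.3 CPM in Saline libraries, so the DT libraries of 96 h lay above those of 24 h and still below every Saline library. Slc4a5, a sodium bicarbonate cotransporter, stood at 4.86% at 24 h and 10.7% at 96 h. The anion exchanger Slc26a4 (pendrin) stood at 13.6% and 15.4% at those times, and the thiamine transporter Slc19a3 at 10.995% and 21.5%. Less reduced were Slc7a8, an amino acid transporter, at 25.1% at 24 h, and Slc30a2, which moves zinc out of the cytosol, at 31.1%. Atp4a, the catalytic subunit of the gastric acid pump, stood at 33.8% at 24 h. Of the 2 ion channel subunits, Cacna1c, the pore of an L-type calcium channel, stood at 29.9% at 24 h and 46.2% at 96 h, and Kcnmb4, an accessory subunit of calcium-activated potassium channels, at 28.4% and 44.1%.

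Enzymes of small-molecule metabolism made up the largest group. Gulo, the last enzyme of vitamin C synthesis in rodents, had 15.0, 13.6, 13.3 and 28.8 CPM in DT libraries of 24 h, against 187, 211, 165 and 125 CPM in Saline libraries of 24 h. No DT library came near a Saline library, and replicate 4 was the highest of the 4. Its DT mean was 10.3% of the Saline mean at 24 h, 20.5% at 48 h (12.2% without the library labelled DT 48 h replicate 3) and 17.96% at 96 h. Cyp2e1, a cytochrome that oxidises ethanol and small solvents, had 0, 0.181, 0.945 and 0.655 CPM in DT libraries, against 4.49 to 6.83 CPM in Saline libraries of 24 h, or 8.32%. Hmgcll1, an enzyme that splits 3-hydroxy-3-methylglutaryl-CoA, stood at 8.37%. The other 9 enzymes of the group, among them the pyruvate dehydrogenase kinase Pdk4 at 20.9%, the tyrosine aminotransferase Tat at 25.4% and the methionine sulfoxide reductase Msrb2 at 37.2%, lay between 14.7% and 37.2% at 24 h. Amy1, an amylase at 21.0%, belongs to a cluster of near-identical copies among which reads may be divided.

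Retinol and steroid dehydrogenases formed a smaller group of 4, with a median of 17.5% at 24 h and 31.6% at 96 h. Rdh9, a short-chain dehydrogenase that acts on retinol and steroids, had 8.57, 9.92, 5.45 and 15.0 CPM in DT libraries of 24 h, against 44.8, 39.6, 40.2 and 31.3 CPM in Saline libraries of 24 h. The groups did not overlap, and they stayed apart at 48 h and 96 h, where the DT mean was 37.3% and 41.0% of the Saline mean. Rdh16, a related enzyme from the neighbouring gene, was far scarcer, at 0.205 ± 0.133 CPM in DT and 1.21 ± 0.239 CPM in Saline libraries of 24 h (SD, n = 4 each), and reads may be divided between such related copies. Hsd17b13, a lipid-droplet enzyme known from liver, stood at 9.91% at 24 h and 15.8% at 96 h.

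Transcripts best known for proteins that the liver secretes into plasma numbered 5. In Saline libraries of 24 h Fetub averaged 81.3 CPM and the other 4 between 2.15 and 10.5 CPM. C8b, the beta chain of complement component 8, had 0.353, 0.398, 0.182 and 0.353 CPM in DT libraries of 24 h, against 11.5, 14.4, 7.80 and 8.30 CPM in Saline libraries of 24 h. Its DT mean was 3.06% at 24 h, 9.12% at 48 h and 9.27% at 96 h. At 48 h the library labelled DT 48 h replicate 3 held 2.04 CPM while the other 3 held 0.180 to 0.276 CPM, and without it the value was 2.90%. At 96 h DT replicate 3 held 2.52 CPM and the other 3 DT libraries 0.197 to 0.257 CPM. Ahsg and Fetub, the paired fetuin genes, stood at 15.3% and 37.4% at 24 h and at 17.5% and 44.1% at 96 h. Serpind1, the thrombin inhibitor heparin cofactor II, stood at 21.0% and 34.1%, and Apof, an apolipoprotein, at 33.9% and 40.1%.

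A list of 17 hepatocyte markers, 4 of which are members (Ahsg, Cyp2e1, C8b and Hsd17b13), summed to 44.8 to 70.7 CPM in DT libraries and 104 to 133 CPM in Saline libraries of 24 h, most of it from Alb at means of 38.1 CPM in DT and 72.7 CPM in Saline libraries. On this list Fga and C8a were at 0 in both groups at 24 h, and Serpina1a had 0 CPM in DT and 0.0381 CPM in Saline libraries. Other hepatocyte markers were detected, among them Hp at 4.52 CPM in DT and 3.99 CPM in Saline libraries, C8g at 2.12 and 3.16 CPM, Apoh at 1.63 and 2.32 CPM, Hpx at 1.98 and 1.62 CPM, Ttr at 1.56 and 1.98 CPM and Serpina1b at 3.04 and 1.31 CPM, each in DT and then in Saline libraries of 24 h. A list of 15 pancreatic acinar markers summed to 70.8 to 134 CPM in DT and 1058 to 1686 CPM in Saline libraries of 24 h, and 4 of its genes (Cela3b, Cpb1, Amy2b and Ptf1a) were at 0 in all libraries. Among the genes left out of the choice of members, Pnliprp1 had means of 24.9 CPM in DT and 579 CPM in Saline libraries of 24 h, and Pnliprp2 10.1 CPM in DT and 729 CPM in Saline libraries; Cela1, which is not on the left-out list, had 53.9 CPM in DT and 79.8 CPM in Saline libraries. A list of 12 gastric markers, 11 of them among the genes counted, summed to 653 to 767 CPM in DT and 1118 to 1248 CPM in Saline libraries of 24 h. Of these 11, 4 were called lower and 2 higher in DT libraries (edgeR adjusted p under 0.05), with a median log2 fold change of 0.28. The sum was thus lower in DT libraries while the median gene of the list was higher. The part of other cell types in the members' values was not tested.

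Among luminal defence proteins Bpifb5, of the family that includes bactericidal/permeability-increasing protein, was the most abundant. It had 21.0, 22.9, 12.3 and 58.6 CPM in DT libraries of 24 h, against 145, 154, 126 and 117 CPM in Saline libraries of 24 h. DT replicate 4 stood above the other 3 and still below every Saline library. Defa21, an alpha-defensin of the kind stored by Paneth cells, showed another time course: its DT mean was 44.9% of the Saline mean at 24 h, 35.7% at 48 h and 21.8% at 96 h. It was scarce, at 1.02 ± 0.491 CPM in DT and 2.27 ± 0.786 CPM in Saline libraries of 24 h (SD, n = 4 each), and defensins are a family of near-identical copies among which reads may be divided. Retnla, a secreted resistin-like protein for which no luminal defence role is given here, was most abundant at 24 h. It had 0.530, 0.543, 0.145 and 1.06 CPM in DT libraries of 24 h, against 3.41, 4.40, 2.20 and 0.686 CPM in Saline libraries of 24 h, and means of 0.167 CPM in DT and 0.377 CPM in Saline libraries of 96 h. Its groups overlapped at all 3 times.

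Promoters of these and the other members were read for the motif ATCAAAG, the core that TCF/LEF factors, the DNA-binding partners of beta-catenin in Wnt signalling, are known to bind. The window was the 250 bases before the start in RefSeq on GRCm38.p6, in which 81 members had an entry, and both strands were read, so its reverse complement CTTTGAT counted as well. It stood in 10 of the 81 member genes (12.3%) and in 3.72% of 27025 genes in the table. The E-box CAGCTG, which reads the same on both strands, stood in 19.8% of member genes and 14.7% of all. Median GC content was 52.0% in member promoters and 52.4% in all. A match is a run of letters and does not show binding. The sequences below are those of the 3 members with a match that the naming rule covers, Bpifb5 (chr2:154223492-154223741, + strand), Defa21 (chr8:21025295-21025544, + strand) and Serpind1 (chr16:17331121-17331370, + strand), each 5′ to 3′ in the direction of the gene with the motif in capitals.
Bpifb5: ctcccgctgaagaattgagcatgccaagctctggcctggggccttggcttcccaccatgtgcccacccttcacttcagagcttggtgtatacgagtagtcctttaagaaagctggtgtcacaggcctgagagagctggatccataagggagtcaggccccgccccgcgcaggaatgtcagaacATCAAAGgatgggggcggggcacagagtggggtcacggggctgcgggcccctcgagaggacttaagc
Defa21: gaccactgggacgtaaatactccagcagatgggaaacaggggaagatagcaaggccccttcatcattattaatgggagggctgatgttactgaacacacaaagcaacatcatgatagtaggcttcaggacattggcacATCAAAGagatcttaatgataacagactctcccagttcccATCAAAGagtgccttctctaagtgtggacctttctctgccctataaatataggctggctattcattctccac
Serpind1: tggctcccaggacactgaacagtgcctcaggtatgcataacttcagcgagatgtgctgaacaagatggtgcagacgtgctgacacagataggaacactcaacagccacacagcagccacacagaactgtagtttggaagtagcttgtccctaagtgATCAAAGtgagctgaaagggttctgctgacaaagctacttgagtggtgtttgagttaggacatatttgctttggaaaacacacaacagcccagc
The motif begins 67 bases before the start of Bpifb5, 94 bases before that of Serpind1, and at 72 and 112 bases before that of Defa21, which alone of the 3 holds it in duplicate.

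Genes best known from neurons, for adhesion, synapse formation and calcium sensing, numbered 9, with a median DT level of 16.9% at 24 h, 28.3% at 48 h (20.8% without the library labelled DT 48 h replicate 3) and 30.4% at 96 h. Pcp4l1, a relative of the calmodulin-binding peptide Pcp4, had 16.9, 22.0, 18.4 and 42.0 CPM in DT libraries of 24 h, against 181, 177, 153 and 128 CPM in Saline libraries of 24 h. The groups were apart by a wide margin, with DT replicate 4 the highest of its group. The contactin Cntn5 and the contactin-associated protein Cntnap4, both surface proteins of axons, stood at 14.9% and 14.0% at 24 h. The adhesion molecule Dscam stood at 13.7% and the calcium sensor Ncald at 27.6%. At 96 h these 4 stood at 30.6%, 19.1%, 29.2% and 49.4%.

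The 7 genes grouped as patterning factors and Wnt1 ran from 2.65% to 41.7% of the Saline mean at 24 h. The low end is Zfp831, for which no patterning role is given here, and without it the range starts at 11.8%. Zfp831, a zinc finger protein, had the lowest 24 h ratio of the members with an assigned symbol: 0.0884, 0.217, 0.109 and 0.151 CPM in DT libraries, against 4.64, 7.09, 4.11 and 5.49 CPM in Saline libraries, or 2.65%. At 48 h the library labelled DT 48 h replicate 3 held 1.78 CPM and the other 3 DT libraries 0.0611 to 0.184 CPM, so the share was 9.95% with it and 2.38% without it. The homeobox genes Msx3 and Nkx1-2 stood at 11.8% and 17.1% at 24 h, Gbx2, another homeobox gene, at 29.0% and Tlx2 at 41.7%. Tbx4, a T-box factor of hindlimb and lung, stood at 13.8%. Wnt1, a secreted Wnt ligand, had 0.530, 0.507, 0.291 and 0.302 CPM in DT libraries, against 1.57, 1.64, 1.06 and 2.29 CPM in Saline libraries of 24 h. The groups did not overlap, though these levels amount to few reads in each library.

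The 5 G protein-coupled receptors had a median of 29.3% at 24 h. Gpr182 had 6.54, 6.48, 4.15 and 13.6 CPM in DT libraries of 24 h, against 25.3, 21.9, 20.4 and 13.8 CPM in Saline libraries of 24 h. DT replicate 4 and Saline replicate 4 nearly met, and the other libraries were well apart. Its shares at the 3 times were 37.8%, 34.4% and 42.1%. Adgrf1, an adhesion receptor, stood at 8.61% at 24 h, 32.5% at 48 h (14.3% without the library labelled DT 48 h replicate 3) and 39.5% at 96 h. Gpr55, a receptor for lysophospholipids, stood at 24.3%, 44.2% and 37.0%. The serotonin receptor Htr5a stood at 45.1%, 31.1% and 33.5%.

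Several members of other roles were prominent. Mt3, a metallothionein that binds zinc and copper, had 1.15, 1.41, 0.945 and 1.76 CPM in DT libraries of 24 h, against 20.7, 21.3, 20.6 and 15.1 CPM in Saline libraries of 24 h, or 6.79%. Prss56, a serine protease, had 5.13, 5.68, 6.40 and 6.75 CPM in DT libraries, against 47.3, 57.3, 41.6 and 40.2 CPM in Saline libraries of 24 h, or 12.9%. In both genes the DT libraries lay close to each other and far below the Saline libraries. Esyt3, a tether between the endoplasmic reticulum and the plasma membrane, was the second most counted member, at 61.1 ± 7.29 CPM in DT and 198 ± 20.9 CPM in Saline libraries of 24 h (SD, n = 4 each). The lowest ratio of all 111 belonged to 9530003J23Rik, a provisional name given here because of its value: it had 0, 0.470, 0.109 and 0.857 CPM in DT libraries, against 37.2, 26.9, 24.97 and 17.8 CPM in Saline libraries of 24 h, or 1.34%. At 48 h it stood at 15.8%, and at 2.01% without the library labelled DT 48 h replicate 3.

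Some noncoding members lay beside or over coding genes. On chromosome 10 the RNAs Kcnmb4os1 and Kcnmb4os2, named as opposite-strand transcripts, overlap Kcnmb4 and stood at 24.8% and 26.8% at 24 h, near the 28.4% of Kcnmb4. Sox2ot, a long noncoding RNA that overlaps Sox2, stood at 21.8% at 24 h and 49.8% at 96 h, while Sox2, which is no member, had means of 4.45 CPM in DT and 8.51 CPM in Saline libraries of 24 h. The coding member A930009A15Rik overlaps Lgr5 in the annotation and stood at 21.2%, 25.04% and 32.9%, below the shares of Lgr5 at each time. How strand was used in counting is not given in the sources used here, so reads of overlapping genes cannot be told apart. In all, 43 members overlap another annotated gene.

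Some members were neighbours within 100 kb. Gpr182, Rdh9 and Rdh16 lie in a row on chromosome 10 (127749602 to 127815846 on GRCm38), with gaps of 24.6 and 8.39 kb. Ahsg and Fetub lie 18.9 kb apart on chromosome 16, and another member, Gm30505, overlaps Ahsg. Gbx2 and the predicted coding gene LOC102637806 lie 899 bases apart on chromosome 1, and Atp4a and 2200002J24Rik lie 1911 bases apart on chromosome 7. Shares left at 24 h were 37.8%, 24.9% and 17.0% for Gpr182, Rdh9 and Rdh16, 15.3% and 37.4% for Ahsg and Fetub, 29.0% and 25.1% for Gbx2 and LOC102637806, and 33.8% and 34.0% for Atp4a and 2200002J24Rik. Neighbours were thus unlike in some runs and close in others.

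Whether members returned with time was tested within the DT libraries, in the fit of all 24 libraries (edgeR quasi-likelihood test, p adjusted by Benjamini-Hochberg over 17468 genes). These libraries also entered the rule, which holds a member's DT mean at or below 0.5 of the Saline mean, so a member could not have returned fully. Of the 111 members 19 were higher in DT libraries of 96 h than of 24 h, or 17.1%, where 16.6% of all genes were called higher. The share was near the background, so it does not mark the members. None was lower, where 20.9% of all genes were, and 1 was called lower by limma and by DESeq2. The rule holds a member's DT mean down at 24 h already, which leaves less room for a lower call. No trait of the members is read from that. At an unadjusted p under 0.05, 24 were higher and 2 lower. The share of all genes at that threshold is not given here, so nothing is read from those counts. The members' median log2 fold change was 0.35, against 0.02 over all genes, and 87 of 111 were above 0. Leaving out DT replicate 3 of 24 h left 8 members called, or 7.21%, where 13.1% of all genes were. Testing without a filter on low counts left 12, or 10.8%, where 7.61% of all genes were.

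Of the 19 members, 10 belong to no role group and 9 to one: both channel subunits, 2 of 8 transporters, 3 of 9 neural genes, 1 of 7 in the patterning group (Zfp831) and 1 of 5 receptors. None of the 12 metabolic enzymes, the 4 dehydrogenases, the 5 plasma-type or the 5 defence proteins passed. Their median log2 fold changes were 0.257, 0.279, 0.117 and -0.040. With 16.6% of all genes called, groups this small are expected to hold few calls or none. No group was tested against another, so no difference between groups is read from these counts. Cacna1c had 23.9, 21.2, 27.2 and 20.1 CPM in DT libraries of 96 h, against 14.8, 17.7, 11.02 and 15.7 CPM in DT libraries of 24 h. Every library of 96 h lay above every library of 24 h, and the log2 fold change was 0.67 ± 0.17 (SE; edgeR adjusted p = 0.00462). Slc44a5 was also higher in all 4 libraries of 96 h, by 1.82 ± 0.54 on the log2 scale (edgeR adjusted p = 0.0123). Prss56 had 12.8, 8.62, 11.2 and 13.4 CPM in DT libraries of 96 h, against 5.13 to 6.75 CPM in DT libraries of 24 h, a log2 fold change of 0.95 ± 0.26 (edgeR adjusted p = 0.00668) without overlap. Kif19a, a kinesin that sets the length of cilia, was higher by 0.74 ± 0.20 (adjusted p = 0.00557), Kcnmb4 by 0.53 ± 0.15 (0.00892) and Ncald by 0.59 ± 0.18 (0.0124), each with all 4 libraries of 96 h above all 4 of 24 h. These 6, with the unmatched identifier 102640680, were the 7 whose calls were kept under every alternative fit and with any single library left out. The largest log2 fold changes belonged to Zfp831 (1.90 ± 0.72, adjusted p = 0.0411) and Slc44a5, and the smallest to Esyt3 (0.42 ± 0.16, adjusted p = 0.0383).

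**Figure D4:**
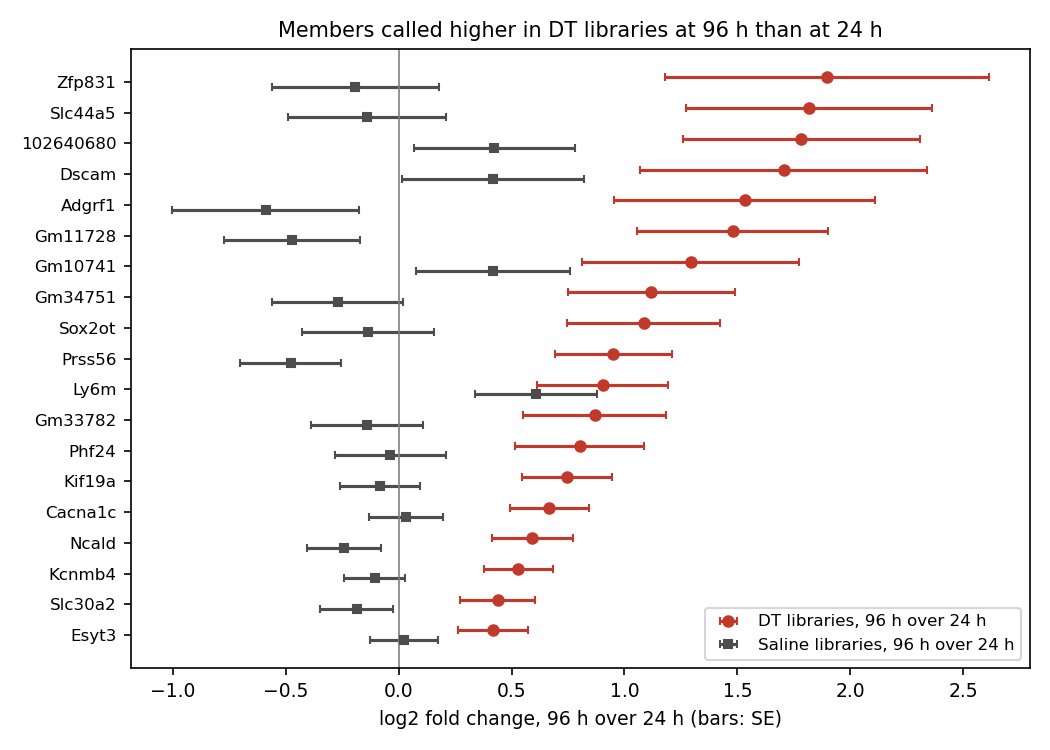
Log2 fold change of 96 h over 24 h with its SE (horizontal axis; edgeR) for the 19 members called higher in DT libraries of 96 h, in DT libraries (circles, red) and in Saline libraries (squares, grey). The DT values run from 0.42 for Esyt3 to 1.90 for Zfp831, and the Saline values of these genes lie on both sides of 0.

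At 48 h the calls depended on which libraries were included. The members higher in DT libraries of 48 h than of 24 h numbered 3, or 2.7%, where 7.29% of all genes were: Esyt3 (log2 fold change 0.53 ± 0.16, edgeR adjusted p = 0.0216) and the unmatched identifiers 102638456 and 102640680. None was lower, where 11.7% of all genes were, and none was lower by limma or DESeq2. As at 96 h, the rule leaves less room for a lower call. At an unadjusted p under 0.05, 19 were higher and 0 lower, and the share of all genes at that threshold is not given here. Without the library labelled DT 48 h replicate 3 no member was called higher, where 6.16% of all genes were. Without DT replicate 3 of 24 h none was either, where 5.80% of all genes were. Without any one of the other 3 DT libraries of 48 h 10 to 12 were, or 9.01% to 10.8%, where 5.99% to 10.3% of all genes were. DESeq2 called 12, or 10.8%, where it called 8.37% of all genes. The count was 6 without DT replicate 3 of 96 h, or 5.41%, where 9.54% of all genes were called. It was 5 without Saline replicate 2 of 24 h or of 96 h, or 4.50%, where 9.01% and 7.32% of all genes were.

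The same contrasts were made within the Saline libraries. The floor of the rule was set on Saline libraries of 24 h alone, so a scarce member could enter through a high value there. Between 96 h and 24 h 1 member was lower, or 0.901%, where 1.13% of all genes were, and none was higher, where 2.09% were. By limma and DESeq2 0 were called higher. At an unadjusted p under 0.05 there were 5 lower and 1 higher. The share of all genes at that threshold is not given here, so nothing is read from those counts. The lower gene was Retnla, with 0.0826, 0.139, 0.260 and 1.03 CPM in Saline libraries of 96 h, against 3.41, 4.40, 2.20 and 0.686 CPM in Saline libraries of 24 h. The groups overlapped, with replicate 4 the highest at 96 h and the lowest at 24 h. Its mean was above the floor of 1 CPM in Saline libraries of 24 h and 0.377 CPM in those of 96 h, so it was chosen on the group it is set against and the call is no independent test. The call was also lost without Saline replicate 1 or 2 of 24 h or Saline replicate 2 or 3 of 96 h. Between 48 h and 24 h no member was called in either direction, where 0.177% of all genes were in each. At an unadjusted p under 0.05, 0 were higher and 6 lower, again without a share of all genes to set beside them. The members' median log2 fold change in Saline libraries was -0.17 at 96 h and -0.24 at 48 h relative to 24 h, against 0.00 and -0.01 over all genes, and 87 of 111 members lay below 0 at 96 h and 91 at 48 h. Lgr5, set beside them, was higher in DT libraries of 96 h than of 24 h by 0.64 ± 0.12 on the log2 scale (edgeR adjusted p = 3.5e-04) and higher at 48 h by 0.57 ± 0.12 (adjusted p = 0.00289).

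Other lists give a frame for these values. Of 22 tested Lgr5+ stem cell genes, none of them members, 10 were called lower and 1 higher in DT than in Saline libraries at 24 h, and 2 lower and 0 higher at 96 h. Of 23 tested Wnt target genes, again with no member, 14 were lower and 1 higher at 24 h, and 7 lower and 1 higher at 96 h. These lists overlap, and the contrast is the one the rule used. Over all genes 18.9% were lower and 19.9% higher at 24 h, and 3.02% and 1.01% at 96 h. Other lists also held lower calls at 24 h. They were 5 of 8 tested Paneth genes, 4 of 8 goblet, 7 of 14 hepatocyte and 4 of 6 pancreatic acinar genes. In those lists 0, 1, 1 and 1 genes were higher. Of 12 enteroendocrine genes 0 were lower and 2 higher, and of 13 tuft genes 2 were lower and 3 higher. Epithelial markers of the tumour, 12 in number, summed to 8125 to 9560 CPM in DT libraries and 7576 to 7940 CPM in Saline libraries of 24 h, so the labelled epithelial cells were present in both. Fibroblast markers summed to 3285 to 7529 CPM in DT and 3799 to 4517 CPM in Saline libraries of 24 h. Macrophage and monocyte markers summed to 240 to 615 CPM in DT and 356 to 488 CPM in Saline libraries, and endothelial markers to 335 to 374 and 235 to 340 CPM. In any of these libraries B and plasma cell markers summed to at most 2.17 CPM, and T and NK cell markers to at most 1.41 CPM. Between 24 h and 96 h in Saline libraries 8 of 12 macrophage and monocyte genes were called lower and 8 of 8 endothelial genes higher. In DT libraries 9 and 5 were.

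The non-member genes most like the members were sought by the Pearson correlation of log2 CPM with the members' median over the 24 libraries, a description in which all points share the same libraries and the same split into DT and Saline. The 5 with the highest r were Slc6a9, a glycine transporter that is also on the left-out list (0.983), Pik3ap1, an adaptor of phosphoinositide 3-kinase (0.977), the amino acid transporter Slc1a4 (0.972), Fgfrl1, a receptor-like protein that binds fibroblast growth factors (0.966), and the molybdenum cofactor sulfurase Mocos (0.966). Lgr5 had an r of 0.912 over the 24 libraries and 0.775 within the 12 DT libraries, and 0.226 within the 12 Saline libraries. Just outside the rule, by the largest of their 3 ratios, were Slc22a3 at 0.501, Rspo4 at 0.505 and Ifitm6 at 0.511. Just inside it were Sox2ot with 49.8%, Bcas1os2 with 49.8% and Wfdc15b with 49.5% as their largest shares.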

How the data were processed

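RNA was sequenced from 24 libraries of mouse tumour cells, 4 in each of 6 groups set by treatment and time. The deposited tables hold, for each library, a count of reads uniquely aligned to each gene model, per the file headers, and an RPKM value that the authors adjusted by a size factor (normalized RPKM), per the file headers. GSNAP and GRCm38 are named in the submitters' processing notes; their versions, the annotation and how strand was used: not given in the sources used here.

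Counts were scaled to CPM by the library sum, and the rule was applied to group means. The members and gene lists were chosen with earlier results of these data known. All 24 libraries entered 1 edgeR 4.0.16 quasi-likelihood fit in R 4.3.3 (TMM scaling, filterByExpr by group, robust), with 17468 genes tested, 18 residual degrees of freedom and p-values adjusted by Benjamini-Hochberg over all of them; all 111 members passed the filter. The test was checked on simulated counts of 17281 genes: for DT at 96 h against 24 h it recovered 67% of genes changed 1.5-fold and 84% of genes changed 2-fold, with 6 false among 157 calls. The changed genes were drawn from all those with a mean of at least 1 CPM. Of the members, 72 were below 10 CPM in Saline libraries of 24 h and scarcer still in DT libraries. Recovery at such levels was not tested. limma 3.58.1 (voom) and DESeq2 1.42.0, other scalings and filters, a replicate block, the compared libraries alone and each library left out were alternatives. Same-numbered libraries did not deviate together in every pair (correlations of -0.36 to 0.21), so they were not treated as paired.

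Genes were named by a rule: those most abundant, lowest at 24 h, most or least different between 96 h and 24 h in DT libraries, nearest the threshold, in a marker list, or most abundant in a gene class. Members named outside it were chosen with their values known, and 1 member that the rule names is counted in the set but not reported here. Gene names and positions came from RefSeq on GRCm38.p6, where 85.0% of identifiers matched.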

Additional observations from a re-analysis of the deposited data

Results flagged for a closer look

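Single libraries far from the other 3 of their group were looked for in 56 quantities in each of the 6 groups, and 33 of 336 (9.82%) stood apart by Dixon's test, where chance flags about 1 in 20 groups. The quantities share libraries and are not independent.

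The library labelled DT 48 h replicate 3 gave 15 of the 33, all as the highest of its group. The members' median stood at 51.4% of the Saline mean and their summed level at 1173 CPM. Spock2 had 289.6 CPM in it, Esyt3 130.2 CPM, Gulo 62.8 CPM, Fetub 45.6 CPM and Slc7a8 19.1 CPM. Slc4a5 had 7.98 CPM, Mt3 6.53 CPM, Slc44a5 5.74 CPM and Hmgcll1 3.43 CPM. C8b had 2.04 CPM, Zfp831 1.78 CPM, Cyp2e1 1.39 CPM and Dscam 0.528 CPM. In DT replicate 2 of that time Rdh16 stood apart at 0.551 CPM.

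DT replicate 3 of 96 h gave 6. The members' median stood at 41.5% of the Saline mean, Slc30a2 at 70.4 CPM, Ceacam10 at 65.5 CPM, Gulo at 44.7 CPM, Cyp2e1 at 2.78 CPM and C8b at 2.52 CPM. Retnla stood apart in DT replicate 2 of 96 h, at 0.542 CPM. At 24 h Gulo stood apart in DT replicate 4 at 28.8 CPM and Gpr55 in DT replicate 1 at 0.442 CPM.

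Among Saline libraries, Mt3 stood apart in replicate 4 of 24 h at 15.1 CPM, and Adgrf1 and Ankfn1 in replicate 1 of 24 h at 3.82 and 2.05 CPM. At 48 h the members' summed level stood apart in replicate 3 at 1863 CPM, Tbx4 in replicate 1 at 8.23 CPM and Nkx1-2 in replicate 4 at 1.98 CPM. At 96 h Slc44a5 stood apart in replicate 2 at 14.5 CPM and Wfdc15b in replicate 1 at 4.79 CPM.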

How the results depend on the processing

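The number of members moved with the thresholds of the rule: 56 at a ratio of at most 0.4, 202 at 0.6, and 57 with a Saline mean of at least 5 CPM. The members' median log2 ratio was then -2.73, -2.13 and -2.19 at 24, 48 and 96 h at 0.4, and -1.75 at 24 h and -1.18 at 96 h at 0.6, which the rule itself sets. Leaving out 1 library at a time gave 102 to 122 members, medians of -2.27 to -1.98, -1.83 to -1.51 and -1.65 to -1.49, and 64 to 99 members lowest at 24 h, the last an alternative added after seeing the data.

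Members higher in DT libraries of 96 h than of 24 h numbered 12 without a filter and 8 to 27 with a library left out. The 8 were 7.21% of members, where 13.1% of all genes were called, and the 27 were 24.3%, where 18.9% were. Members lower numbered 1 by limma, by DESeq2 and with only the libraries compared, and 0 to 2 with a library left out. In these fits 17.3% to 22.7% of all genes were called lower. Members higher at 48 h than at 24 h numbered 1 without a filter, 1 by limma, 0 with only the libraries compared, 12 by DESeq2 and 0 to 12 with a library left out. In that order 2.96%, 7.45%, 2.27%, 8.37% and 5.74% to 10.3% of all genes were called higher. In Saline libraries the 1 member lower at 96 h became 0 without a filter and with only the libraries compared. With a library left out it was 0 to 1. At 48 h 1 was lower by DESeq2 and with only the libraries compared, and 0 to 1 with a library left out. In these fits at most 1.61% of all genes were called lower. With the replicate number as a block the counts were 16 (DT, 96 h), 3 (DT, 48 h) and 1 (Saline, 96 h lower). These were 14.4%, 2.7% and 0.901% of members, where 16.05%, 6.996% and 0.945% of all genes were called in that fit. No result reversed. The causes were not tested. With 72 members below 10 CPM, counting error limits the scarce ones.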
